A study of Mus musculus with 14 samples.

Results

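Cardiac fibroblasts taken from the infarct area 3 days after myocardial infarction (MI) were set against fibroblasts of the uninjured heart. The comparison holds the 3 arrays labelled as 3 days post-MI and the 3 arrays labelled as uninjured, 6 of the 14 arrays of the series, and every gene row with a name. The remaining arrays, from later times between 7 days and 4 weeks, served to estimate the spread and to show where 3 days stood apart. All mice were C57BL/6 animals of the genotype TCF21-MerCreMer;R26GFP and had received tamoxifen, so that both groups carried the same alleles and had met the same drug. MerCreMer is a Cre recombinase that tamoxifen switches on, and here it was made from the Tcf21 locus, so that GFP permanently marked the cells in which Tcf21 had been active, and their descendants. Hearts were digested with collagenase D and Dispase II, GFP-positive cells were sorted, and their RNA was hybridized to Clariom S Mouse arrays. The uninjured cells came from the left ventricle and the 3-day cells from the infarct after permanent ligation of a coronary artery, so injury and the region sampled cannot be told apart. The sort misses fibroblasts that never used the Tcf21 locus under tamoxifen, and the labels call the arrays biological replicates without saying how many hearts made up an extract.

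Fibroblasts of the healthy ventricle rest between the muscle cells, divide rarely and keep up a thin network of collagen and small proteoglycans. When a coronary artery closes, the muscle it fed dies, and the surviving fibroblasts leave rest, divide, migrate into the dead zone and become contractile, matrix-secreting cells known as myofibroblasts. Leaving rest calls for ribosomes, nucleotides, amino acids and a larger endoplasmic reticulum (ER), while the scar itself needs collagen that is hydroxylated, secreted and crosslinked outside the cell.

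Values are log2 signals, so that a difference of 1 is a 2-fold change, and 19494 genes were tested. As background level served a signal of 6.04, below which 95% of 1410 genes for smell and pheromone receptors lay, genes with no known role in these cells. Between 10350 and 10637 genes lay above it on each of the 6 arrays, and 11013 did so in the mean of either group. Folds against a group near that level are what the array showed rather than ratios of transcripts. Arrays of the same group correlated at 0.971 to 0.991 and arrays of different groups at 0.9465 to 0.9641. The arrays numbered 1 in each group formed a set of their own: pairs of them shared 481 to 808 exactly equal values, against at most 2 in any other pair, and 7075 genes differed between them and the rest. Each of the 2 groups held 1 array of that set. Only 3 arrays a group limit the precision. The p-values of the main fit rest on the spread within all groups of the series, later times included, and not on these arrays alone.

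At 3 days after MI, most of the measured genes of the cell cycle and of DNA replication were higher than in uninjured fibroblasts (32 of 39 and 22 of 26), as were 22 of 36 genes of protein secretion, 10 of 24 of collagen processing and 23 of 62 of actin, contraction and adhesion. Lower were 25 of 49 quiescent fibroblast genes, 21 of 38 detoxification genes, 12 of 23 immediate early genes and 10 of 25 genes of small proteoglycans and the basement membrane. With limma, 1313 of the 19494 genes were higher (6.74%) and 1133 were lower (5.81%), 12.5% together, at an adjusted p under 0.05. A change of at least 2-fold was met by 1034 of the higher genes (5.3% of all genes) and 869 of the lower ones (4.46%), 9.76% together. All 3 of the 3-day arrays lay above all uninjured arrays in 2422 genes (12.4%) and below them in 2454 (12.6%). The median difference over all genes was -0.023 on the log2 scale, which is the level against which the medians of the gene groups below can be read. With the replicate number as a block the counts were 2019 and 1698, and all 1313 and 1133 calls of the plain fit were among them. Leaving out single arrays gave 938 to 1378 higher and 791 to 1266 lower genes. A fit of the 6 arrays alone gave 1079 higher and 910 lower genes.

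The sorted cells carried the marks of fibroblasts on every array. Dcn, the collagen-binding proteoglycan decorin, stood at 19.01, 18.83 and 18.66 in uninjured fibroblasts and at 18.42, 18.25 and 18.46 at 3 days, near the top of the range of signals, which ended at 19.218. Its difference of -0.46 did not pass the test (adjusted p = 0.159), but it did with quantile normalization, at -0.66 (adjusted p = 0.0194). Vim, an intermediate filament protein of mesenchymal cells, differed by 0.57 (adjusted p = 0.105, and 0.034 with the replicate block), and Thy1, a surface glycoprotein of fibroblasts, by 0.33 (adjusted p = 0.408). Tcf21, the transcription factor whose locus drove the Cre, read 12.33, 13.56 and 13.66 in uninjured and 10.90, 10.77 and 10.84 in 3-day fibroblasts. Its signal thus fell by 2.35 ± 0.29 on the log2 scale (SE, adjusted p = 9.6e-05), with no overlap between the groups, and remained well above background.

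The 12 largest rises joined secreted and matrix proteins with genes of the dividing cell. Cthrc1, a secreted glycoprotein of healing tissue, stood at 6.17, 6.29 and 5.68 on the uninjured arrays, around the background level, and at 14.47, 14.46 and 13.95 on the 3-day arrays. That is a difference of 8.25 ± 0.28 (SE), the largest of all genes the naming rule took (adjusted p = 1.25e-09). Tnc, the glycoprotein tenascin C of healing wounds, rose from 9.95, 9.35 and 8.70 to 17.74, 17.14 and 17.85. In both genes the groups lay 7 or more log2 units apart even between their nearest arrays. Adam12, a membrane-anchored metalloprotease, rose from 4.66 ± 0.23 (SD, n = 3) to 12 ± 0.14 (SD, n = 3), and Lox, which oxidizes lysines so that collagen and elastin can crosslink, from 7.25 ± 0.12 to 14.11 ± 0.27 (SD, n = 3). Cemip, a hyaluronan-degrading protein, read 3.71, 4.40 and 4.25 before and 10.29, 9.30 and 10.92 after injury, so it passed from below background to a clear signal. The plot of the largest changes by array shows these genes side by side.

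Of the remaining large rises, Cdk1, Mki67, Pclaf and Plk1 belong to the cell cycle and are described with it. Steap1, a metalloreductase of the cell surface, rose by 6.63 ± 0.39 (SE), from 4.93, 5.93 and 5.80 to 11.88, 12.65 and 12.03. Ddah1, which breaks down an inhibitor of nitric oxide synthase, rose by 6.32 ± 0.46 and Palld, a scaffold of actin bundles, by 6.00 ± 0.36 (SE). All 12 kept their calls without any 1 array and moved by less than 1.5-fold.

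**Figure D1:**
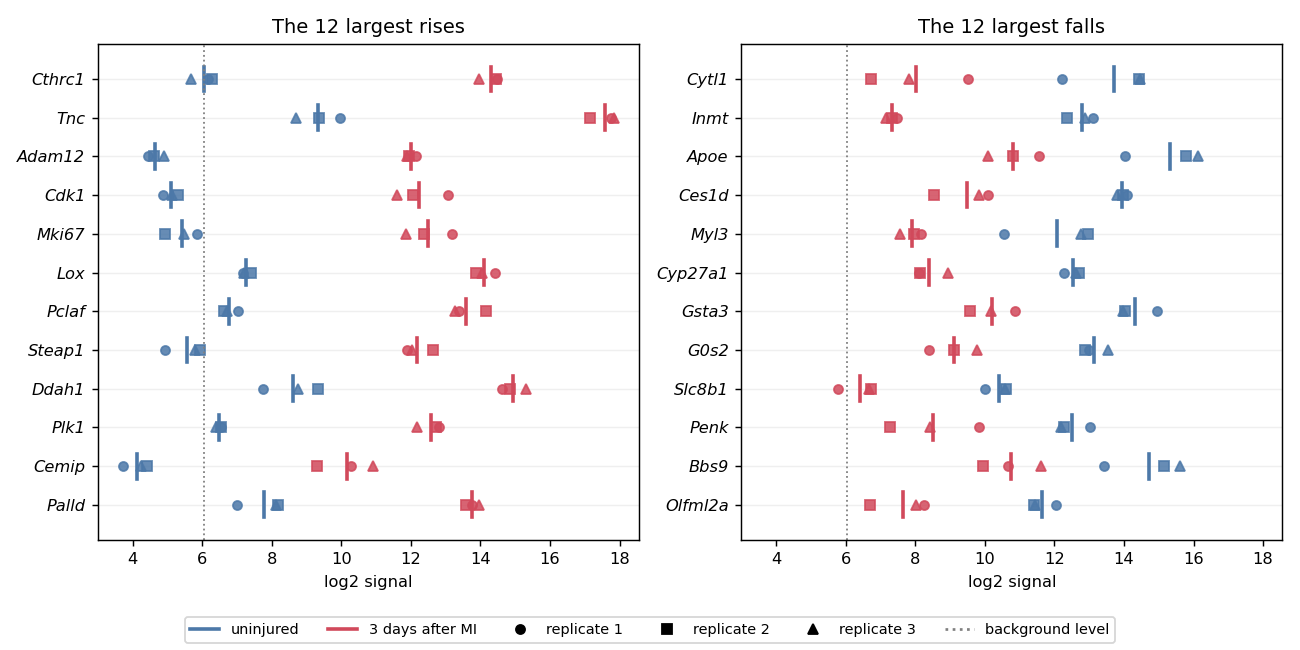
Log2 signal of the 12 genes with the largest rise (left) and the 12 with the largest fall (right) on each of the 3 uninjured (blue) and 3 3-day arrays (red). Vertical bars mark group means, symbols the replicate number and the dotted line the background level of 6.04. In none of these genes do the 2 groups overlap, and in Cytl1 and Penk the 3-day array numbered 2 is the lowest.

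The 12 largest falls included enzymes and secreted proteins. Cytl1, a small secreted cytokine-like protein, read 12.22, 14.42 and 14.47 in uninjured and 9.53, 6.72 and 7.83 in 3-day fibroblasts, and its signal fell by 5.68 ± 0.69 (SE, adjusted p = 9.25e-05). The arrays of each group were spread widely, and the difference was -6.42 without uninjured replicate 1, -6.43 without 3-day replicate 1 and -5.03 without 3-day replicate 2. Inmt, an amine methyltransferase, was even in each group at 12.79 ± 0.37 against 7.32 ± 0.17 (SD, n = 3). Ces1d, a carboxylesterase, fell by 4.46 ± 0.42 (SE), Cyp27a1, a sterol hydroxylase, fell by 4.13 ± 0.38, and G0s2, an inhibitor of the main triglyceride lipase, fell by 4.03 ± 0.44 (SE). Each of these 4 genes kept its call and size without any 1 array. Slc8b1, a mitochondrial sodium and calcium exchanger, fell to 6.40 ± 0.53 (SD, n = 3), close to background. Olfml2a, a secreted matrix protein, fell by 3.97 ± 0.38 (SE).

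Penk, the precursor of the enkephalin peptides, fell by 3.98 on the log2 scale, with -4.65 without 3-day replicate 1 and -3.37 without 3-day replicate 2. Bbs9, a part of the cilium transport complex, fell by 3.98, with -4.63 without uninjured replicate 1. Myl3, a myosin light chain of heart muscle, was also among the 12 largest falls, with 10.54, 12.96 and 12.76 on the uninjured and 8.17, 7.97 and 7.55 on the 3-day arrays. Its difference was -4.19, or -4.96 without uninjured replicate 1, the uninjured array with the lowest mean log2 signal of endothelial and cardiomyocyte markers.

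The gene groups moved to very different degrees, from the cell cycle and replication genes at one end to the quiescent fibroblast genes at the other. The respiratory chain had 1 of 25 genes higher and the ribosomal proteins of the cytosol 1 of 18, all of them above background in at least 1 group. Among the 11013 genes above background in either group, 1268 were higher (11.5%) and 1104 were lower, both larger shares than among all genes. The groups were written from general knowledge of the processes, with earlier results of these data known, so their counts describe the arrays and test nothing about the groups.

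**Figure D2:**
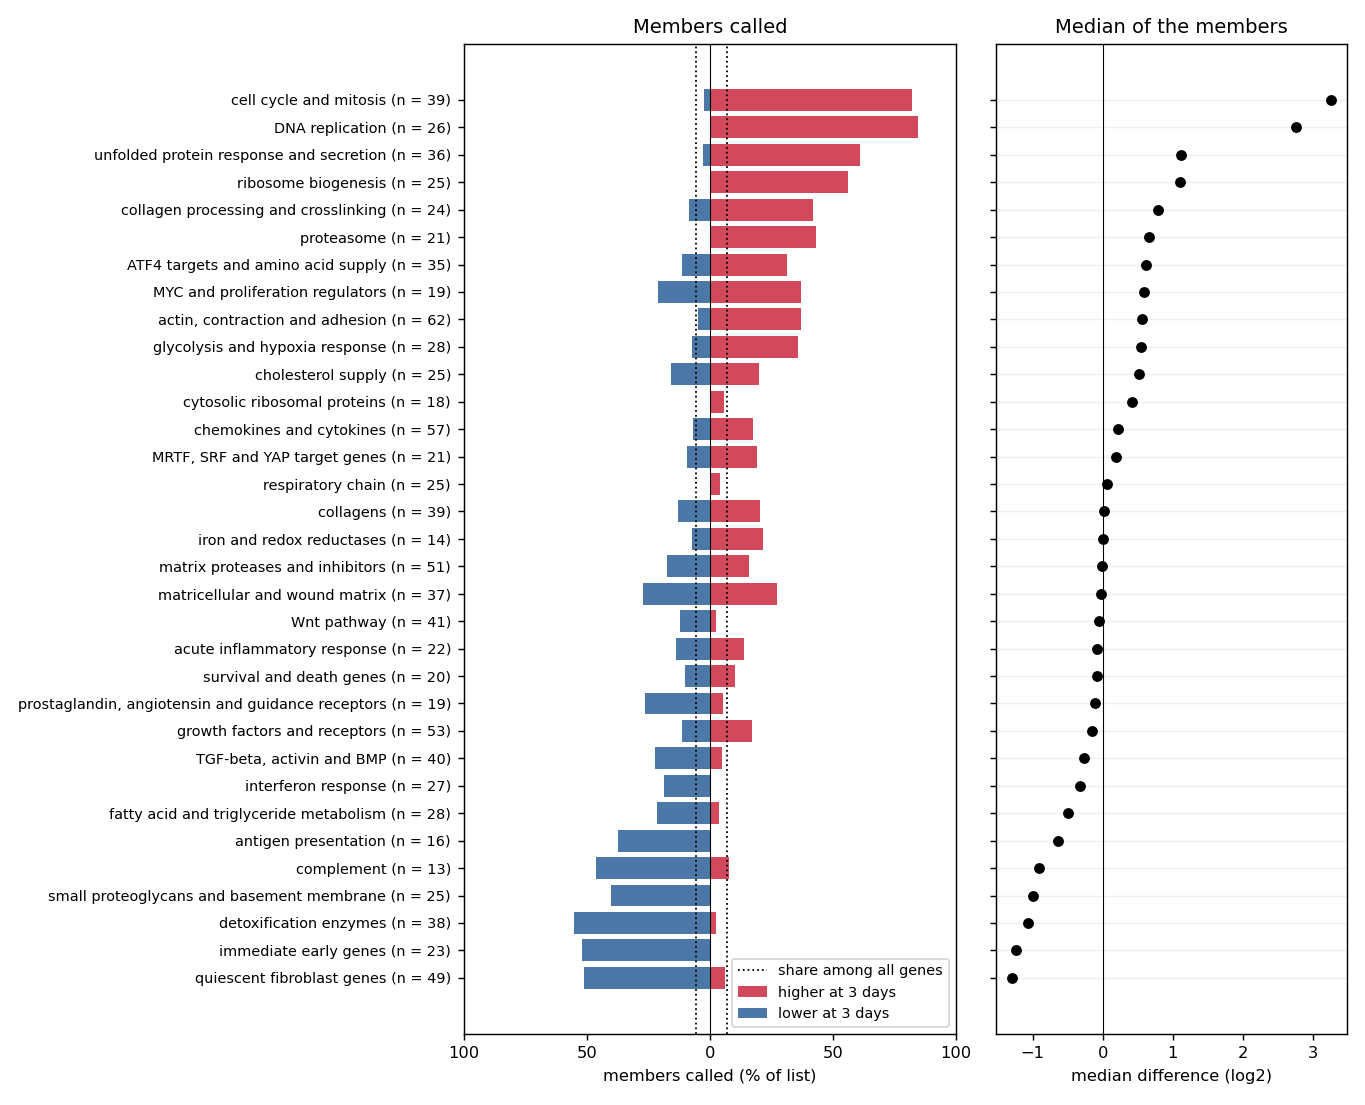
Left, share of the measured members of each gene group that were higher (red) or lower (blue) at 3 days, in percent, with dotted lines at the shares among all 19494 genes (6.74% and 5.81%). Right, median difference between 3 days and uninjured on the log2 scale. Cell cycle and DNA replication lie at the top with medians of 3.26 and 2.75, and quiescent fibroblast genes at the bottom with -1.30.

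Genes that carry cells through mitosis rose together. All 10 mitotic kinases and cyclins measured were higher, with a median difference of 3.95, and so were all 19 genes of the spindle, kinetochore and cytokinesis, with a median of 4.09. Cdk1, the kinase that starts mitosis, read 4.88, 5.31 and 5.13 in uninjured and 13.06, 12.05 and 11.60 in 3-day fibroblasts, below background on every uninjured array and 139.8-fold higher at 3 days (adjusted p = 1.35e-07). Plk1, a kinase of the spindle poles, rose by 6.08 ± 0.39, Ccna2, the cyclin of S phase and early mitosis, by 5.13 ± 0.35, and Ccnb2, a mitotic cyclin that pairs with Cdk1, by 4.40 ± 0.29 (SE). Mki67, whose protein coats mitotic chromosomes and is the usual stain for dividing cells, rose from 5.84, 4.92 and 5.47 to 13.19, 12.39 and 11.86. The groups did not overlap in any of these genes. Among the spindle genes, Birc5, a subunit of the chromosomal passenger complex, rose by 4.86 ± 0.38, Cdc20, the activator of the anaphase-promoting complex, by 4.74 ± 0.41, and Nuf2, a kinetochore protein, by 4.74 ± 0.34 (SE). Without any 1 array, 30 or 31 of the 39 genes were still higher.

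Among 10 G1 cyclins, inhibitors of cyclin-dependent kinases (CDK) and pocket proteins, 3 were higher and 1 was lower, with a median of -0.18. Ccne2 and Ccne1, the E cyclins that drive entry into S phase, rose by 3.25 ± 0.30 and 1.89 ± 0.29 (SE). Ccnd2, a D cyclin that answers to growth factors, stood at 8.30, 8.17 and 8.60 in uninjured and 9.05, 9.12 and 9.08 in 3-day fibroblasts, a small rise of 0.73 (adjusted p = 0.0343) that was not called without any 1 of the arrays other than uninjured replicate 3. Cdkn1a, the CDK inhibitor p21, fell by 1.4 (adjusted p = 0.0274), from 15.97, 16.49 and 16.37 to 15.42, 13.69 and 15.52. The 3-day array numbered 2 was the lowest, and the difference was -0.81 and not called without it (adjusted p = 0.0585). It was also not called without uninjured replicate 2 or 3 (adjusted p = 0.102 and 0.0848).

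All 12 measured genes of the replicative helicase and of origin licensing were higher, with a median of 2.91, as were 10 of 14 genes of polymerases, the clamp and nucleotide supply. Mcm5 and Mcm2, subunits of the helicase ring, rose by 4.70 ± 0.38 and 4.00 ± 0.36, and Gins2, a part of the active helicase, by 3.56 ± 0.40 (SE). Gmnn, which blocks a repeat of licensing within a cycle, read 4.99, 5.62 and 5.51 before and 8.74, 9.14 and 8.06 after injury. Pclaf, a protein bound to the sliding clamp PCNA, rose by 6.81 ± 0.31, more than any other gene of the group, from 7.02, 6.62 and 6.71 to 13.37, 14.15 and 13.27. Uhrf1, which hands DNA methylation on to the new strand, rose by 4.78 ± 0.36, Rrm2, the regulated subunit of ribonucleotide reductase, by 3.11 ± 0.40, and Pole, the leading strand polymerase, by 3.00 ± 0.26 (SE). Among the transcription factors of proliferation, E2f8, a repressor made late in S phase, rose by 5.04 ± 0.42 (SE). Mybl2, which activates mitotic genes with the MuvB proteins, rose by 4.78 ± 0.34 (SE).

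Promoters of mitotic genes are known to carry the cell cycle genes homology region (CHR), bound by the DREAM and MuvB proteins, and CCAAT boxes, bound by NF-Y. The promoters were taken from RefSeq on the build GRCm38.p6, as 250 bases before to 50 after each start, and 31 of the 39 cell cycle genes had one. The CHR letters TTTGAA or TTCGAA, on either strand, lay in 22 of those 31 (71.0%), against 21.7% of the promoters of all genes of the table. The share was 7 of 8 for the kinases and cyclins, 14 of 17 for the spindle genes, 1 of 6 for the G1 genes and 4 of 21 for the replication genes. CCAAT, on either strand, lay in 24 of the 31 (77.4%) and in 15 of the 21 replication promoters (71.4%), against 41.1% of all, and both motifs in 61.3% against 8.61%. Among all 1060 called higher genes with a promoter, 21.3% held the CHR letters. Within only the 150 bases before the start the letters lay in 25.8% of the cell cycle promoters and 11.2% of all, with 1 of 8 kinases and cyclins (12.5%), 7 of 17 spindle genes (41.2%) and 0 of 6 G1 genes. A match of letters is a description and not evidence of binding. The promoters of 4 mitotic genes that rose 21.1-fold or more are shown here from 150 bases before to 30 after the start, on the minus strand, because they let the position of the CHR letters (in capitals) be compared. They are Cdk1 (chr10:69352883-69353062), Mki67 (chr7:135716350-135716529), Cdc20 (chr4:118437314-118437493) and Ccnb2 (chr9:70421525-70421704).
Cdk1: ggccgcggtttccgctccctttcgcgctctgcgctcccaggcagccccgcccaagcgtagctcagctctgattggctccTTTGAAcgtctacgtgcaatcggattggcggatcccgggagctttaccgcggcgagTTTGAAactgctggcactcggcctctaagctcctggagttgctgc
Mki67: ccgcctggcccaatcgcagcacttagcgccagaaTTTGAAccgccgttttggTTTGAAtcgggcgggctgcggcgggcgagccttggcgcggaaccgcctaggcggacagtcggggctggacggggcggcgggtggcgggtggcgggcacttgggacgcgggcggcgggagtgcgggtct
Cdc20: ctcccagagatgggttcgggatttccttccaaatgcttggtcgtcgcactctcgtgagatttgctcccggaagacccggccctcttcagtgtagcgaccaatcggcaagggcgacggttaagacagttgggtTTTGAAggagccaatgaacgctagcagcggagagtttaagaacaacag
Ccnb2: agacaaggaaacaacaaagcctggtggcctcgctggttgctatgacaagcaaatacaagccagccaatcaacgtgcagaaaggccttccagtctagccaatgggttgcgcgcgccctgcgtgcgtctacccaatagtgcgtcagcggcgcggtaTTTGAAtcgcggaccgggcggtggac
The letters begin 71 and 15 bases before the start in Cdk1, 116 and 98 before it in Mki67 and 18 before it in Cdc20, and 4 bases after it in Ccnb2.

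Of 25 nucleolar factors of ribosome making 14 were higher and 0 lower, with a median of 1.11, and 21 were higher with the replicate block. The count was 8 without uninjured replicate 2, 8 without 3-day replicate 1 and 7 without 3-day replicate 2. Nhp2, a core protein of the particles that modify ribosomal RNA, rose by 2.02 ± 0.31, Noc2l, an export factor of the large subunit, by 1.4 ± 0.22, and Polr1a, the largest subunit of RNA polymerase I, by 1.37 ± 0.31 (SE). Only Rpl4 of 18 ribosomal proteins passed the test, at 16.64, 16.64 and 16.79 against 17.15, 17.27 and 17.25 (adjusted p = 0.0443), and it lost its call whichever of the 6 arrays was left out. Rpl3, a protein of the large subunit, differed by 0.42 (adjusted p = 0.358), and the median of the 18 was 0.41. The proteasome, which degrades proteins marked with ubiquitin, had 9 of 21 subunits higher and 0 lower, with 5 without uninjured replicate 2, 5 without uninjured replicate 3, 4 without 3-day replicate 1 and 3 without 3-day replicate 2. Psmd2, a scaffold of its regulatory cap, rose by 1.5 ± 0.22 and Psma4, a ring subunit of its core, by 1.21 ± 0.21 (SE).

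ATF4 is the transcription factor through which cells short of amino acids, or with a stressed ER, raise enzymes and transporters that restock them. Of 35 genes, listed as ATF4 targets and genes of amino acid supply, 11 were higher and 4 lower. Of 9 genes of amino acid synthesis 4 were higher and 0 lower, and of 8 transporters 4 were higher and 1 lower, though 2 higher without 3-day replicate 1. Asns, asparagine synthetase, read 8.48, 9.04 and 8.90 in uninjured and 12.21, 12.28 and 11.49 in 3-day fibroblasts, a rise of 3.19 ± 0.35 (SE, adjusted p = 3.53e-05) with the groups far apart. Mthfd2, a mitochondrial folate enzyme, rose by 2.43 ± 0.38, Psat1, of serine synthesis, by 1.76 ± 0.34, and Aldh18a1, of proline synthesis, by 1.19 ± 0.26 (SE). Slc7a1, a carrier of cationic amino acids, and Slc38a1, a carrier of glutamine, rose by 1.53 ± 0.30 and 1.74 ± 0.30, and the glutamine carrier Slc1a5 fell by 1.42 ± 0.25 (SE). Of 10 tRNA synthetases 3 were higher (5 without uninjured replicate 1 and 6 with the replicate block), led by Gars, the glycine enzyme, with a rise of 2.02 ± 0.22 (SE).

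Of the 8 regulators 3 were lower and 0 higher. Ddit3, the stress factor CHOP, fell by 2.03 ± 0.31 (SE), from 12.25, 12.94 and 13.09 to 10.65, 10.40 and 11.15. Atf5, a relative of ATF4, fell by 1.43 ± 0.29 and Nupr1, a small chromatin protein of stressed cells, fell by 1.42 ± 0.24 (SE). Atf4 itself differed by -1.26 (adjusted p = 0.057, and 0.0056 with the replicate block), at 14.78, 16.42 and 16.25 against 14.10, 14.72 and 14.84, so that the lowest uninjured array lay within the 3-day range. TGATGNAA is the amino acid response element to which ATF4 binds. It lay on either strand of 10 of 28 promoters of this group (35.7%), against 4.51% of all. Within only the 150 bases before the start the shares were 17.9% and 2.54%. The group was listed partly as ATF4 targets, so a high share may follow from the choice of members and is no test. The element lay in 3 of 8 regulators, 2 of 9 synthesis genes, 2 of 5 transporters and 3 of 6 tRNA synthetases. Over all genes with a promoter it lay in 2.45% of those called higher, 4.14% of those called lower and 3.95% of those tested. The promoter of Asns (chr6:7693180-7693359, minus strand, from 150 bases before to 30 after the start) is shown because this gene rose most in the group, with the element in capitals, 23 bases before the start.
Asns: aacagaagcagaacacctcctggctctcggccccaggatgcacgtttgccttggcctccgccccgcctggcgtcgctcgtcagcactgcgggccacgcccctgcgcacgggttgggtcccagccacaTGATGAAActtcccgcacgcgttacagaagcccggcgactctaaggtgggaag

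Of 36 genes of the unfolded protein response and secretion 22 were higher and 1 was lower, with a median of 1.11. Among 16 chaperones and folding enzymes 10 were higher (6 without 3-day replicate 1). Fkbp11, a prolyl isomerase of secretory cells, rose by 5.49 ± 0.35 (SE), from 8.02, 8.41 and 8.93 to 13.49, 14.32 and 14, far more than the others. Fkbp14, an isomerase that acts on collagen, rose by 2.56 ± 0.39, Hyou1, a large ER chaperone, by 1.71 ± 0.36, and Serpinh1, the collagen chaperone HSP47, by 1.26 ± 0.23 (SE). Of 14 genes of ER to Golgi transport 11 were higher and 0 lower. Sec61b, of the channel through which new proteins enter the ER, rose by 1.74 ± 0.18, Kdelr2, which returns chaperones to the ER, by 1.54 ± 0.27, and Sec24d, of the coat that loads procollagen, by 1.42 ± 0.20 (SE).

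Of 6 sensors and regulators of ER stress only Creb3l1, a membrane-bound factor that raises collagen secretion genes, was higher, from 12.72, 12.41 and 12.51 to 14.59, 14.26 and 14.13. Hspa5, the ER chaperone BiP, read 16.12, 15.96 and 15.65 against 16.65, 16.14 and 16.06, with overlapping groups and a difference of 0.37 (adjusted p = 0.589). Dnajb9, a cochaperone made on ER stress, fell by 1.32 ± 0.32 (SE), a call lost without 3-day replicate 2 (-1.17, adjusted p = 0.0668).

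Of 16 genes of glucose uptake and glycolysis 8 were higher and 0 lower, with a median of 0.71. Slc16a3, which exports lactate, rose by 2.48 ± 0.39 (SE), from 6.94, 8.66 and 8.60 to 11.09, 10.34 and 10.20. Slc2a1, the glucose transporter GLUT1, rose by 2.28 ± 0.44, Pgk1 by 2.00 ± 0.28 and Pgam1, the next enzyme of the path, by 1.99 ± 0.24 (SE). Of 12 other genes known to answer to low oxygen, 2 were higher and 2 lower, so the group had no common direction. The 2 higher became 1 without uninjured replicate 2, 3-day replicate 1 or 3-day replicate 3, and the 2 lower became 4 with the replicate block. Hif1a, the oxygen-regulated factor itself, rose by 2.17 ± 0.34, while Adm, the vasodilator adrenomedullin, fell by 1.86 ± 0.28 and Ankrd37 fell by 1.49 ± 0.33 (SE). Vegfa, the main angiogenic factor, read 15.99, 15.63 and 15.35 against 15.72, 13.59 and 15.46, with overlapping groups and a difference of -0.73 (adjusted p = 0.436). Only Ndufs1 of 25 respiratory chain genes was higher, and 4 were with the replicate block. Its call (1.27, adjusted p = 0.0251) was kept only without uninjured replicate 1 or 3-day replicate 3.

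In lipid handling, 4 of 6 genes of cholesterol efflux and sterol breakdown were lower. Apoe, the main apolipoprotein of non-liver cells, read 14.03, 15.78 and 16.14 in uninjured and 11.57, 10.80 and 10.10 in 3-day fibroblasts, a difference of -4.50 (adjusted p = 6.63e-05), or -5.14 without uninjured replicate 1. Nr1h3, the sterol-sensing receptor LXR alpha, fell by 2.06 ± 0.26 (SE), from 9.53, 9.66 and 9.77 to 7.63, 7.73 and 7.44, and Abca1, the LXR-driven cholesterol pump, fell by 1.28 ± 0.34 (SE). The call of Abca1 was lost without uninjured replicate 1 or 2 (adjusted p = 0.0501 and 0.108) and without 3-day replicate 1 or 3 (0.0718 and 0.0815). Of 16 genes of cholesterol synthesis 5 were higher, but 2 without uninjured replicate 2 and 1 each without uninjured replicate 3, 3-day replicate 1 and 3-day replicate 3. Fdps, which makes farnesyl diphosphate, was the steady member, at 10.69, 9.20 and 9.56 against 12.23, 12.07 and 12.32 (2.39 ± 0.42, SE).

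Of 28 genes of fatty acid and triglyceride metabolism 6 were lower and 1 was higher. Pnpla2, the main triglyceride lipase, fell by 2.25 ± 0.25, Acaa2 and Ech1, of mitochondrial fat oxidation, differed by -1.43 ± 0.32 and -1.07 ± 0.21, and Elovl6, which lengthens fatty acids, rose by 1.85 ± 0.34 (SE). Fabp3, the fatty acid binding protein of heart muscle, read 8.63, 10.63 and 10.52 before and 7.24, 6.65 and 7.37 after injury, with a difference of -2.84, or -3.49 without uninjured replicate 1. Among the 6 genes of fat uptake 2 were lower, 4 without uninjured replicate 1 or with the replicate block, and 1 without uninjured replicate 2, 3-day replicate 1 or 3-day replicate 3. The mean of 16 cardiomyocyte markers was likewise 8.28 and 8.07 on uninjured arrays 2 and 3, 7.01 on uninjured array 1 and 6.38 to 6.59 at 3 days. The part of heart muscle RNA in these falls was not tested.

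Of 38 genes of detoxification 21 were lower and 1 was higher, with a median of -1.07. Among 10 glutathione transferases and related genes 8 were lower. Gsta3 read 14.96, 14.02 and 13.96 in uninjured and 10.86, 9.57 and 10.19 in 3-day fibroblasts, Gstt1 fell by 3.89 ± 0.24, Gstm1 fell by 3.18 ± 0.29 and Gstm5 fell by 1.78 ± 0.34 (SE). The groups were apart in all 4. Of 16 genes of oxidation, carbonyl and ester metabolism 11 were lower. Besides Inmt and Ces1d, these included Aldh2, the mitochondrial aldehyde dehydrogenase, which fell by 2.48 ± 0.29, and Adh1, an alcohol dehydrogenase that also acts on retinol, which fell by 2.44 ± 0.40 (SE). Cyp7b1, a hydroxylase of oxysterols, was the 1 that rose, from 6.68, 7.23 and 7.84 to 10.38, 8.88 and 9.12 (without uninjured replicate 1 or with the replicate block, 3 genes of the 38 were higher). Of 12 genes of the oxidative stress response 2 were lower, or 1 without uninjured replicate 1 or 3 or 3-day replicate 1 or 2. Mt1, a metallothionein, fell by 1.70 ± 0.30 (SE) and kept its call in each case.

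**Figure D3:**
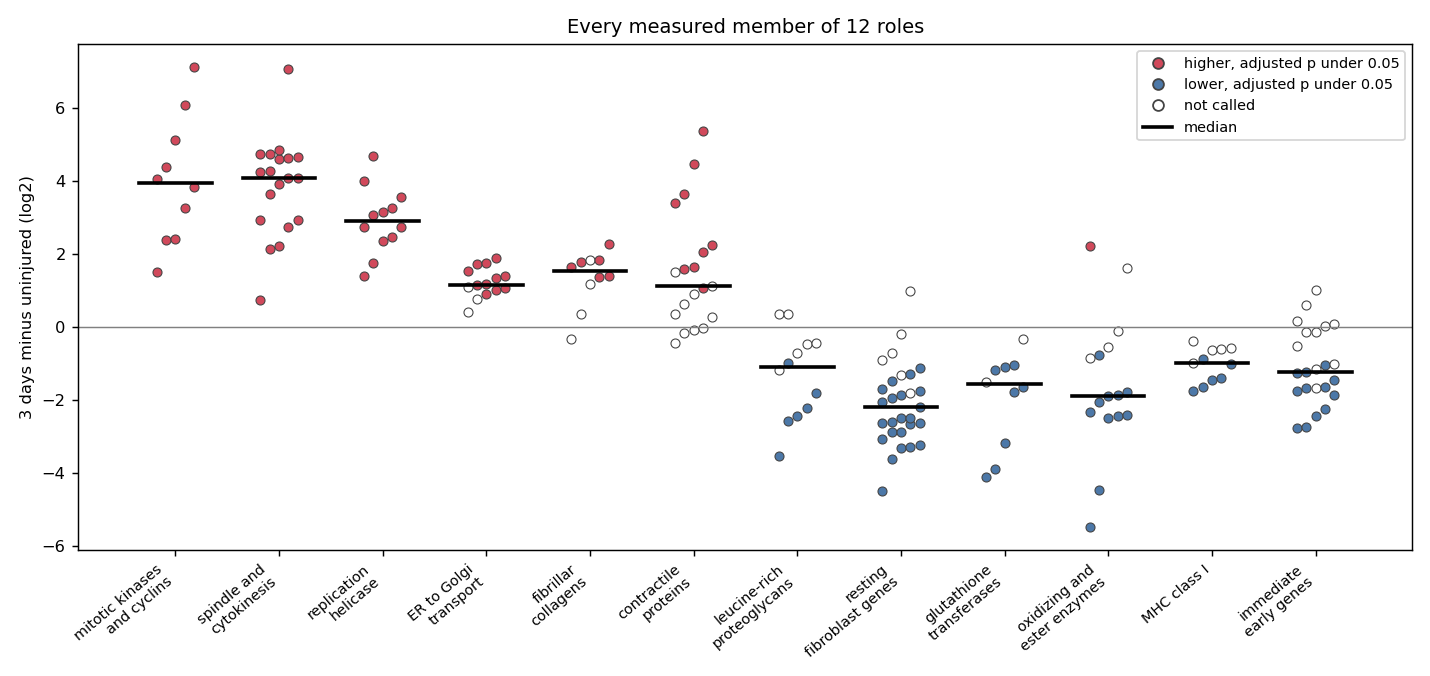
Difference between 3 days and uninjured on the log2 scale for every measured member of 12 roles. Filled points passed the test (red higher, blue lower), open points did not, and bars mark medians. All members of the first 3 roles are red, with medians of 3.95, 4.09 and 2.91, while the roles from leucine-rich proteoglycans to immediate early genes hold blue and open points and a single red one, Cyp7b1.

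Of 10 fibrillar collagen genes 6 were higher and 0 lower, with a median of 1.53. Col1a1 and Col1a2, the chains of type I collagen, rose from 15.19, 15.49 and 15.55 to 17.21, 16.98 and 17.58 and from 11.50, 11.69 and 11.77 to 13.93, 13.61 and 14.27. Col3a1, of type III collagen, rose by 1.66 ± 0.26 and Col5a2, of the type V collagen that sets fibril width, by 1.77 ± 0.20 (SE). Type I collagen was thus already far above background at rest and rose 3.6-fold to 4.87-fold. Over all 39 collagen genes 8 were higher and 5 lower, and the 5 became 3 without uninjured replicate 2, 3-day replicate 1 or 3-day replicate 3 and 2 without 3-day replicate 2. Col4a3, a basement membrane chain, fell by 1.98 ± 0.31 (SE), and its call and size held without any 1 array.

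Of 24 genes that finish and crosslink collagen 10 were higher and 2 lower, the 2 becoming 0 without uninjured replicate 2 or 3-day replicate 1 and 1 without uninjured replicate 3, 3-day replicate 2 or 3-day replicate 3. Besides Lox (115.9-fold), Loxl3, another lysyl oxidase, rose by 2.78 ± 0.20 (SE), from 14.56, 14.33 and 14.52 to 17.13, 17.27 and 17.35. P4ha3, a subunit of the prolyl hydroxylase that stabilizes the collagen helix, read 5.52, 5.83 and 6.00 in uninjured fibroblasts, at or below background, and 10.79, 10.89 and 10.35 at 3 days. Plod2, whose hydroxylysines make the lasting crosslinks of scars, rose by 2.77 ± 0.30, P3h1, another prolyl hydroxylase, by 2.06 ± 0.27, and Colgalt1, which adds galactose to collagen, by 1.09 ± 0.20 (SE).

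Wound glycoproteins were among the genes with the largest rises. Of 20 matricellular genes 6 were higher and 2 lower, the 2 becoming 0 without uninjured replicate 2, uninjured replicate 3 or 3-day replicate 1 and 1 without 3-day replicate 2. Ccn4, a secreted protein first known as a Wnt target, rose by 3.80 ± 0.36 (SE), and Postn, the matrix protein periostin that marks activated fibroblasts, read 15.59, 15.13 and 15.09 before and 17.43, 17.56 and 17.70 after injury. Comp, a thrombospondin of cartilage and tendon, differed by -1.80 (adjusted p = 0.0141), at 7.92, 9.37 and 9.88 against 6.95, 6.97 and 7.85, and its call was lost without uninjured replicate 2 or 3 (adjusted p = 0.0644 and 0.0728) or 3-day replicate 1 or 2 (0.0592 and 0.0633). Of 17 genes of fibronectin, fibrillins and the elastic fibre 4 were higher and 8 lower. Fn1, fibronectin, rose from 14.65, 14.67 and 14.77 to 18.01, 17.62 and 17.99, and Ltbp2, a microfibril protein, by 4.20 ± 0.24 (SE). In the other direction Ltbp4, which binds latent TGF-beta and elastin, fell by 2.88 ± 0.24, Fbln5, an organizer of elastic fibres, fell by 2.47 ± 0.28, and Eln, elastin, fell by 2.02 ± 0.30 (SE). Over the 37 genes of both groups 10 were higher and 10 lower, the lower ones 6 without uninjured replicate 3.

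No small proteoglycan or basement membrane gene was called higher, and 10 of 25 fell, 6 of the 12 leucine-rich proteoglycans and 4 of the 13 basement membrane genes (7 with the replicate block). Chad, chondroadherin of cartilage, went from 7.32, 8.03 and 8.33 to 4.25, 4.76 and 4.14, below background. Prelp and Omd, relatives that bind collagen, differed by -2.43 ± 0.28 and -2.20 ± 0.50, and Ecm2 fell by 1.81 ± 0.28 (SE). Lama2, the laminin chain around muscle, fell by 2.07 ± 0.31, Lamb2 fell by 1.23 ± 0.23, and Smoc2, a calcium-binding basement membrane protein, fell by 3.14 ± 0.50 (SE). These falls kept their calls without any 1 array.

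The genes of matrix breakdown went both ways. Of 51 proteases and inhibitors 8 were higher and 9 lower, the higher ones 5 without uninjured replicate 2 or 3-day replicate 1 and 13 with the replicate block. Timp1, an inhibitor of metalloproteases, read 10.73, 11.68 and 11.54 in uninjured and 16.03, 15.56 and 16.01 in 3-day fibroblasts, a rise of 4.55 ± 0.32 (SE). Timp2, its relative, fell by 1.22 ± 0.17 and Reck, a membrane-bound inhibitor, fell by 2.22 ± 0.45 (SE). Mmp2, gelatinase A, fell by 1.56 ± 0.22 from a very high level, 17.52, 17.68 and 17.60, and Adamts10, a protease of microfibrils, fell by 1.97 ± 0.33 (SE).

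Of 62 genes of actin, contraction and adhesion 23 were higher and 3 lower (6 with the replicate block). Acta2, smooth muscle actin, the mark of myofibroblasts, read 8.82, 11.54 and 11.08 in uninjured and 15.76, 16.08 and 15.76 in 3-day fibroblasts. The uninjured arrays were uneven and the 3-day arrays close together, and the difference of 5.38 (adjusted p = 2.89e-05) was 4.56 without uninjured replicate 1. Tpm2, a tropomyosin, rose by 4.48 ± 0.43, Actg2, the enteric smooth muscle actin, by 3.41 ± 0.63, and Myh9, a non-muscle myosin, by 2.26 ± 0.26 (SE). Of 19 contractile genes 9 were higher and 0 lower. Myh11, the myosin of mature smooth muscle, read 5.87, 5.85 and 5.69 against 6.28, 5.57 and 5.06, around background in both groups.

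Of 20 actin regulators and focal adhesion genes 10 were higher and 1 lower, the 10 becoming 6 without uninjured replicate 3. Actn1, which crosslinks actin at adhesions, rose by 4.69 ± 0.37 (SE), from 7.32, 6.41 and 6.78 to 11.65, 11.53 and 11.41, and Flna, filamin A, by 1.78 ± 0.28 and Vcl, vinculin, by 1.4 ± 0.27 (SE). Cadherins, which join cells to each other, showed 2 of 8 genes higher and both by a large step. Cdh3 read 4.26, 5.11 and 5.27 against 10.57, 10.66 and 10.54, and Cdh2, N-cadherin, 7.89, 8.42 and 8.02 against 13.91, 13.74 and 13.44. Of 15 integrins 2 were higher and 2 lower, with 1 or 2 in each direction without any 1 array. Itga5, the alpha chain of the fibronectin receptor, rose by 2.56 ± 0.33 and Itga8 fell by 2.67 ± 0.32 (SE). Targets and regulators of the mechanical switches MRTF, SRF and YAP had 4 of 21 genes higher, but 1 without 3-day replicate 2.

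Of 24 chemokine ligands 5 were higher and 0 lower. Cxcl5, which draws neutrophils, read 4.95, 5.59 and 5.87 in uninjured and 11.44, 9.41 and 9.58 in 3-day fibroblasts, a difference of 4.67 (adjusted p = 1.98e-05), or 4.03 without 3-day replicate 1. Ccl9, a chemokine for myeloid cells, rose by 3.55 ± 0.43, Cx3cl1, fractalkine, by 1.94 ± 0.28, and Cxcl12, which holds progenitor cells in place, by 1.61 ± 0.28 (SE). Of 16 interleukins and growth cytokines 2 were higher (4 without 3-day replicate 2). Il33, an alarmin of stromal cells, was at 9.73, 7.33 and 8.01 before and 12.71, 11.01 and 11.85 after injury, a difference of 3.50, or 4.19 without uninjured replicate 1. Il6, the main cytokine of the acute phase, was high and uneven in both groups, at 14.09, 16.32 and 15.96 against 16.06, 13.87 and 15.45 (adjusted p = 0.888). Il1r1, the interleukin 1 receptor, rose by 2.21 ± 0.35 (SE), and Ackr3, a scavenging chemokine receptor, fell by 3.06 ± 0.42 (SE).

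Of 22 genes of acute phase and innate proteins 3 were higher and 3 lower, or 5 and 2 without 3-day replicate 2. Lcn2, the iron-trapping lipocalin 2, read 12.53, 7.91 and 10.45 at 3 days after 4.71, 5.14 and 4.57 in uninjured fibroblasts, and Saa3, serum amyloid A3, 12.61, 7.78 and 11.04 after 6.64, 6.31 and 6.71. Hp, haptoglobin, followed the same order, at 11.35, 8.49 and 10.61 after 4.02, 4.18 and 5.55. In all 3 genes the 3-day array numbered 2 was the lowest and the one numbered 1 the highest, with every 3-day array above the uninjured ones. Their differences of 5.49, 3.92 and 5.57 were 6.68, 5.27 and 6.40 without 3-day replicate 2 and 4.37, 2.85 and 4.97 without 3-day replicate 1.

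Of 27 interferon-stimulated genes 5 were lower and 0 higher. Irf1, a transcription factor of the interferon response, fell by 2.93 ± 0.32, Mx2, an antiviral GTPase, fell by 2.48 ± 0.27, and Cmpk2 fell by 2.19 ± 0.28 (SE). All 6 lowered genes of antigen presentation were among the 11 of MHC class I. B2m, the shared light chain, went from 15.69, 16.45 and 16.26 to 14.20, 14.79 and 14.53, H2-D1, a heavy chain, fell by 1.45 ± 0.25 and Tapbp, which loads peptides, fell by 1.38 ± 0.30 (SE). Heavy chains share sequence, so probes of 1 may read another. Of 13 complement genes 6 were lower and 1 higher, the 1 becoming 0 without uninjured replicate 2 or 3 or 3-day replicate 1 and 2 without uninjured replicate 1 or with the replicate block. Cd55, which shields cells from complement, fell by 2.24 ± 0.32, C1ra, a protease of the first component, fell by 1.69 ± 0.28, and its inhibitor Serping1 fell by 1.61 ± 0.26 (SE).

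Of 29 markers shared by resting fibroblasts of many organs 23 were lower and 0 higher, with a median of -2.19. Clec3b, tetranectin, read 16.12, 15.60 and 15.46 in uninjured and 12.58, 12.16 and 12.55 in 3-day fibroblasts. Entpd2, which breaks down extracellular ATP, fell by 3.21 ± 0.26 and Gsn, the actin-severing protein gelsolin, fell by 2.88 ± 0.30 (SE), the latter from 17.81, 18.06 and 18.19. Of 20 genes of lineage and identity 3 were higher and 2 lower, with a median of 0.08. Gata4, a cardiac transcription factor of these cells, fell by 1.36 ± 0.28 and Prrx1, a mesenchymal transcription factor, rose by 1.66 ± 0.34 (SE). In sorted bulk RNA, fewer cells of a kind and less RNA per cell cannot be told apart.

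Hgf, the hepatocyte growth factor, read 6.25, 6.69 and 5.42 in uninjured and 10.01, 9.77 and 9.22 in 3-day fibroblasts, and Pdgfc, a PDGF ligand, 3.55, 5.08 and 5.50 against 8.88, 8.98 and 8.58. Ereg, an EGF family ligand, rose by 4.89, or by 4.12 without 3-day replicate 1, and Bdnf, a neurotrophin, by 3.79 ± 0.40 (SE). Pappa, a protease that frees IGF from its binding proteins, rose by 3.54 ± 0.34, while the binding proteins Igfbp6 and Igfbp4 differed by -3.65 ± 0.37 and -1.93 ± 0.30 (SE). Pgf, a relative of VEGF, fell by 2.26 ± 0.36 and Vegfd rose by 2.26 ± 0.33 (SE). Over 53 growth factors and receptors 9 were higher and 6 lower, the lower ones 3 without 3-day replicate 2 and 10 with the replicate block.

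In the TGF-beta superfamily 2 activin genes rose and 4 BMP genes fell. Inhba, which forms activin A, read 7.38, 5.50 and 5.89 in uninjured and 11.90, 9.26 and 10.02 in 3-day fibroblasts, a difference of 4.13 (adjusted p = 0.000456), or 3.38 without 3-day replicate 1. Fstl3, which binds activin, rose by 1.39 ± 0.32 (SE). Tgfb1, the best known driver of fibrosis, read 11.54, 12.27 and 12.38 against 12.39, 13.15 and 12.49, a difference of 0.61 that did not pass the test (adjusted p = 0.433). Of 11 BMP ligands and antagonists 4 were lower and 0 higher. Bmp4 fell by 2.95 ± 0.45, Bmp2 fell by 2.09 ± 0.34 and Bmp6 fell by 1.49 ± 0.23 (SE). Id1, Id2 and Id3, which BMP signals induce, were also lower, with differences of -1.99 ± 0.27, -2.52 ± 0.35 and -2.04 ± 0.26 (SE). The 2 higher genes of the superfamily became 4 without uninjured replicate 1. In the Wnt pathway 1 of 41 genes was higher and 5 lower, or 0 and 3 without uninjured replicate 2, uninjured replicate 3 or 3-day replicate 2, 2 and 7 without uninjured replicate 1 and 3 and 6 with the replicate block. Fzd7, a Wnt receptor, fell by 1.35 ± 0.24 and its co-receptor Lrp5 fell by 1.17 ± 0.24 (SE).

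Immediate early genes are switched on within minutes of a stimulus and also during tissue digestion. Of 23 such genes 12 were lower and 0 higher, with a median of -1.23, or 7 lower and 1 higher without 3-day replicate 2. Fos, an AP-1 subunit, stood at 15.72, 15.76 and 15.79 in uninjured and at 12.82, 14 and 13.76 in 3-day fibroblasts. Atf3 fell by 2.73 ± 0.36 and Ier2 fell by 2.77 ± 0.43 (SE). The part of the digestion of the tissue was not tested. Among the regulators of growth, Runx1, a transcription factor of activated fibroblasts, rose by 5.73 ± 0.36 (SE), from 6.48, 7.18 and 7.63 to 13.39, 12.23 and 12.86. Of 19 genes of the E2F, MYC and related regulators 7 were higher and 4 lower, among the latter Mxi1, an antagonist of MYC, which fell by 1.05 ± 0.20 (SE).

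Of 14 genes of iron handling and surface reductases 3 were higher and 1 lower, or 4 and 2 without uninjured replicate 1 or with the replicate block. Beside Steap1, its relative Steap2 rose by 4.62 ± 0.49 and Slc39a14, an importer of zinc and iron, by 3.07 ± 0.35, while Steap3 fell by 1.25 ± 0.22 (SE). Among 20 genes of survival and death 2 were higher and 2 lower, the lower ones 1 without uninjured replicate 2 or 3 or 3-day replicate 1 or 2. Casp8, the caspase of death receptors, rose by 1.22 ± 0.27 and Bcl2l1, the survival protein BCL-XL, fell by 1.44 ± 0.23 (SE). Of 19 genes of prostaglandin, angiotensin and guidance signals 1 was higher (3 with the replicate block) and 5 were lower, or 2 lower without uninjured replicate 2 or 3-day replicate 2. Ace, which makes angiotensin II, fell by 1.64 ± 0.37 and Ptgfr, a prostaglandin receptor, fell by 1.49 ± 0.26 (SE).

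Against the mean of the 3 later times (7 days and 2 and 4 weeks), 3-day fibroblasts were higher in 1413 genes (7.25%) and lower in 1096 (5.62%). The higher count was 900 without 3-day replicate 1 and 922 without 3-day replicate 2, the lower count 648 without 3-day replicate 2, and with the replicate block the counts were 2153 and 1712. This contrast shares the 3-day arrays with the main one, so the 2 are not independent. Mki67 (5.90 ± 0.46), Cdk1 (5.83 ± 0.33) and Pclaf (5.72 ± 0.26, SE) led the genes that were higher at 3 days than later and also higher than at rest. Cdk1 averaged 12.2 on the 3-day arrays and 10.3, 4.79 and 4.11 at the later times in turn, the last 2 below background. Adam12 went the same way, with 12, 9.9, 6.23 and 5.09, and so did Pbk, a mitotic kinase, and Steap1, with 12.64 and 12.19 at 3 days and 6.28 and 5.56 at 4 weeks. Lcn2 averaged 10.30 at 3 days against 5.38, 4.93 and 6.26 at the later times, a difference of 4.78 ± 0.67 (SE), with the uneven 3-day arrays described above.

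Another set of genes had its lowest level at 3 days and passed the level of rest later. Comp averaged 7.26 at 3 days and 12.90, 14.81 and 15.26 in the later groups in turn, and Chad 4.38 against 7.55, 11.19 and 13.88, after uninjured means of 9.06 and 7.90. Angptl7, a secreted angiopoietin-like protein, was at 10.68 at rest, 6.83 at 3 days and 14.95 at 4 weeks. Gng8, a G protein subunit, averaged 12.26, 9.89 and 15.08 at the same 3 points. Abi3bp, a matrix protein, and Eln differed from the later times by -3.85 ± 0.38 and -3.78 ± 0.25 (SE). Apoe had its lowest mean at 3 days, 10.8, against 14.7 to 15.3 in the other 4 groups, and so returned to the level of rest.

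**Figure D4:**
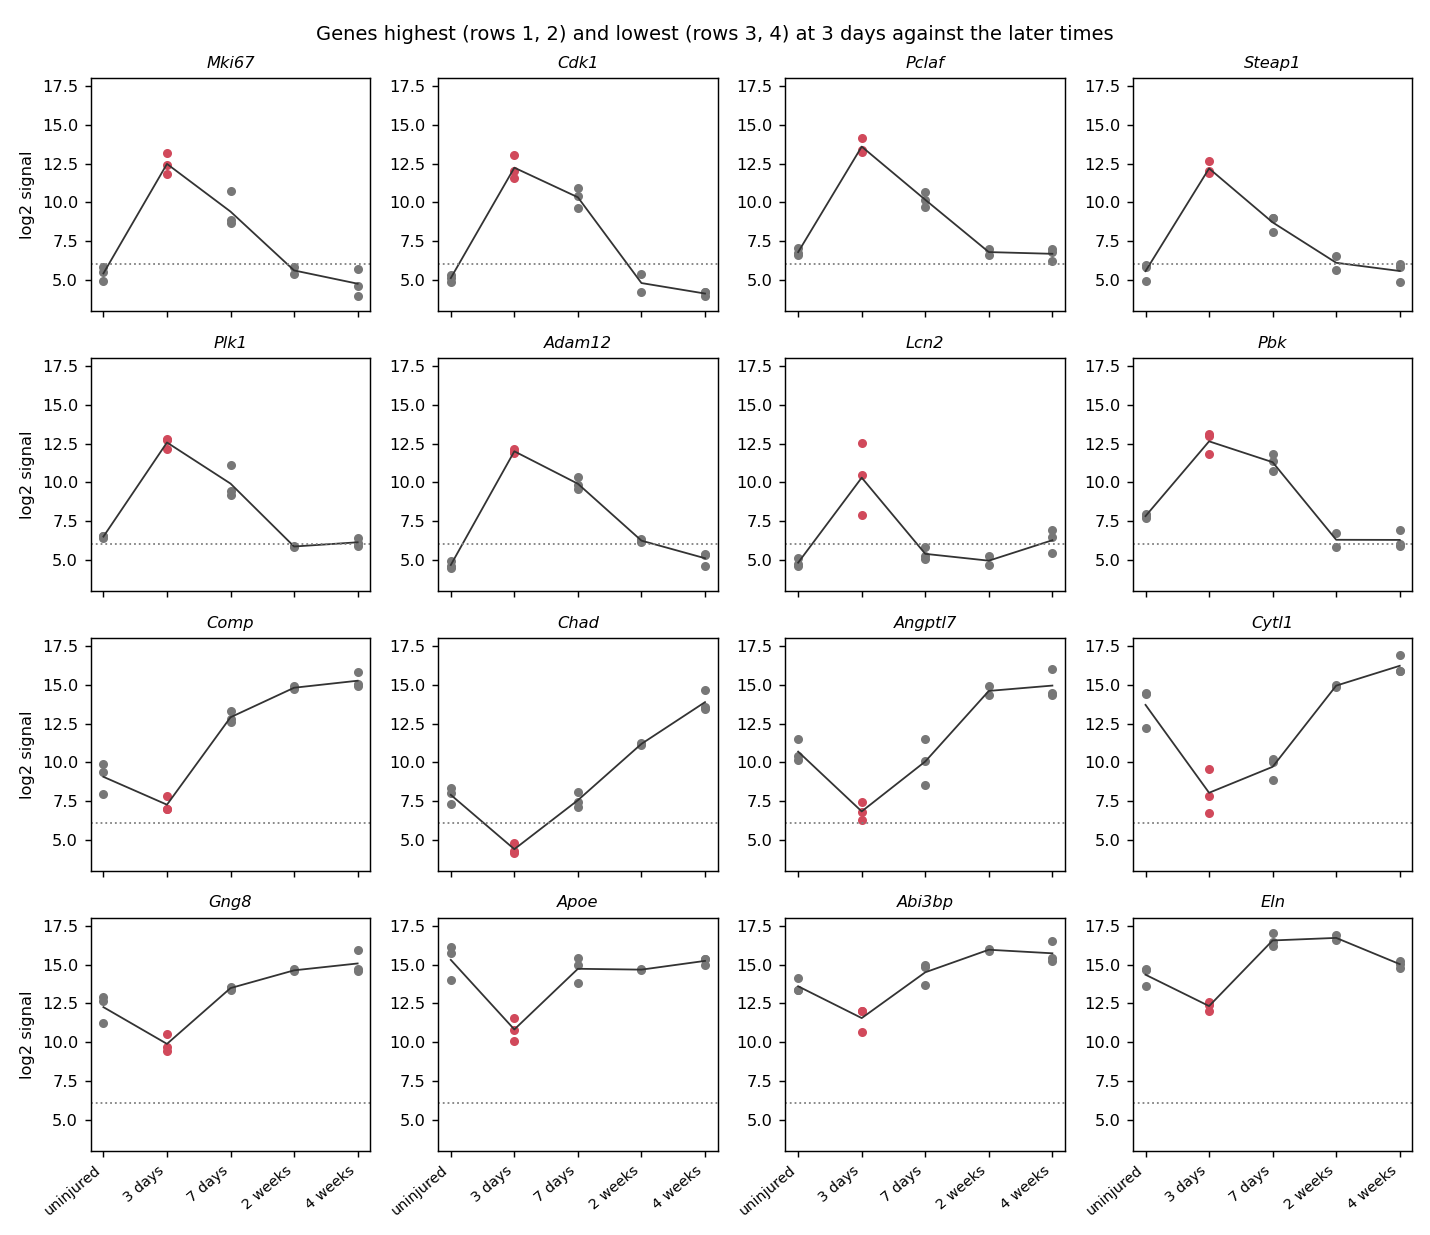
Log2 signal by array over the 5 groups for the 8 genes highest (upper rows) and the 8 lowest (lower rows) at 3 days against the later times, with lines through group means, 3-day arrays in red and the background level dotted. The upper genes peak at 3 days and are near the background level by 2 weeks, and the lower genes have their lowest mean at 3 days, with Comp and Chad rising through 4 weeks.

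Markers of other cells of the heart were read on the same arrays. Of 18 macrophage and monocyte markers 4 were higher and 0 lower, and their mean level was 5.39 to 5.74 on the uninjured and 5.96 to 7.45 on the 3-day arrays. Lyz2, lysozyme of myeloid cells, read 5.72, 6.14 and 5.91 against 9.58, 10.05 and 7.65, a difference of 3.17, or 3.89 without 3-day replicate 3. Ms4a7, Ctss and Tyrobp were the other 3, and the count was 2 without uninjured replicate 2 or 3-day replicate 2 and 7 without 3-day replicate 3. Ptprc, the leukocyte antigen CD45, differed by 0.34 (adjusted p = 0.752), and C1qa, complement C1q of macrophages, by 1.64 (adjusted p = 0.176), or 2.35 without 3-day replicate 3 (adjusted p = 0.0483). Neutrophil markers had a mean of 4.65 to 4.93 against 5.05 to 5.43, with 1 of 11 higher (Mmp8, and 2 without 3-day replicate 3 or with the replicate block), and lymphocyte and mast cell markers of 4.41 to 4.81 against 4.63 to 4.68, with 0 of 14. The part of myeloid cells in the risen chemokine and acute phase genes was not tested.

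Endothelial markers averaged 7.60, 8.80 and 8.47 on the uninjured and 7.24, 6.66 and 6.33 on the 3-day arrays, with 2 of 12 lower, 4 without uninjured replicate 1 and 1 without any other array. Pecam1, the endothelial antigen CD31, read 7.15, 8.37 and 7.81 against 7.28, 5.88 and 5.79, with overlap (adjusted p = 0.177). Its difference was -1.46, or -2.26 without the arrays numbered 1. Cardiomyocyte markers showed 4 of 16 lower, 8 without uninjured replicate 1 and 2 without 3-day replicate 2, with 8 also under the replicate block. Myl2, a heart myosin light chain, read 8.91, 11.71 and 11.88 before and 6.95, 7.67 and 7.28 after injury, a difference of -3.54, or -4.50 without uninjured replicate 1. Uninjured replicate 1 had the lowest mean of both lists among the uninjured arrays. The summed linear signal of the cardiomyocyte list, relative to the uninjured mean, overlapped between the groups, at 0.955, 1.08 and 0.967 against 1.0, 0.662 and 0.759. On the same measure the endothelial list was lower without overlap, at 0.399, 1.32 and 1.28 against 0.302, 0.181 and 0.0918. The macrophage and monocyte list was higher without overlap, at 0.842, 1.04 and 1.12 against 3.51, 5.72 and 1.46. Pericyte and smooth muscle markers overlapped in mean log2 signal, at 6.86 to 7.86 against 6.97 to 7.48. Of these 11 markers 1 was lower (3 without uninjured replicate 1 or with the replicate block). Their summed linear signal was lower without overlap, at 0.649, 1.12 and 1.23 against 0.619, 0.569 and 0.442. The 2 red cell markers averaged 7.96 to 8.46 against 7.10 to 7.47, with 1 lower. Their summed signal was also lower, at 0.943, 0.921 and 1.14 against 0.754, 0.573 and 0.493. The 6 Schwann cell and neuron markers stayed below background on all 6 arrays on average. Of 10 epicardial markers only Aldh1a2, which makes retinoic acid, was higher (2.41 ± 0.46, SE), and Wt1, the epicardial transcription factor, was below background on every array. The summed linear signal of the epicardial list was higher without overlap, at 1.42, 0.771 and 0.813 against 4.18, 3.88 and 4.27. The 3-day mean of 8 of the 10 did not exceed background.

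**Figure D5:**
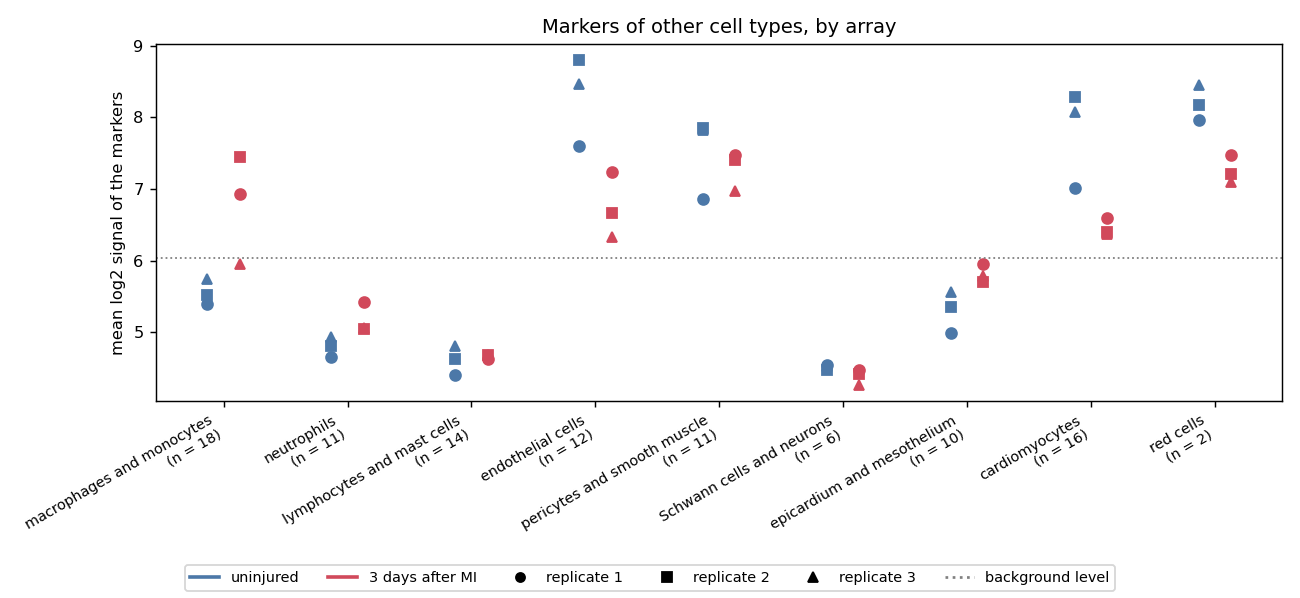
Mean log2 signal of the markers of 9 other cell types on each array, uninjured in blue and 3 days in red, with the symbol giving the replicate number and the dotted line the background level of 6.04. Macrophage means are higher on the 3-day arrays (5.96 to 7.45 against 5.39 to 5.74), and endothelial and cardiomyocyte means are lower, with uninjured replicate 1 nearest to the 3-day arrays.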

How the data were processed

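Biotin-labelled targets were made from the RNA of sorted fibroblasts (Pico kit) and read on Clariom S Mouse arrays. The authors deposited 1 table of log2 signals per transcript cluster, and the submitters' processing notes name Affymetrix Expression Console; the summarization method and genome build are not given in the sources used here. Of 28846 rows, 6704 were controls and 2615 had no gene symbol in the platform annotation. The 19527 others gave 19494 genes, 33 of them with more than 1 row. For these, the row with the highest mean signal over all arrays was kept. Nothing was renormalized.

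Groups came from the labels. All 14 arrays entered 1 limma fit (3.58.1, R 4.3.3) of the deposited log2 values as 5 group means with moderated variances (9 residual and 4.53 prior degrees of freedom), and p-values were adjusted by Benjamini-Hochberg over all 19494 genes at 0.05. The fit was tested on simulated data before use. Tables were made with python 3.11.15, pandas 2.3.3 and numpy 2.4.6. As the labels do not tie same-numbered samples together, the numbers were checked: deviations from the group means of same-numbered arrays correlated at 0.373, 0.177 and 0.174, all over 0.1, so the number served as a block in an alternative fit. Different-numbered arrays correlated at -0.303 to 0.193, the highest for uninjured array 3 with 3-day array 2. The correlations thus do not show that numbers 2 and 3 tie samples across the groups. Other alternatives were a block for the array set, and fits of the 6 arrays alone, without single arrays and without the arrays numbered 1. Median centring, quantile normalization, a filter at the background level, a variance trend and the methods' t-test were also used. The last is a 2-tailed t-test of the 6 arrays with equal variances, named after the paper's general statement for 2 groups. For the arrays themselves the paper names the Transcriptome Analysis Console.

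Genes named are the 12 largest rises and falls whose groups lay apart, up to 4 called members in each direction of each role, preferring those stable without any 1 array, members that define a cell or process, and the 8 most different from the later times in each direction. Members and lists were chosen with earlier results of these data known. Promoters came from RefSeq (GRCm38.p6) and matched 15683 tested genes by symbol.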

Additional observations from a re-analysis of the deposited data

Results flagged for a closer look

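Rows of the table that carried no gene name were left out of the comparison but held signal that differed between the groups. Of 2615 such rows, 102 were higher at 3 days (3.9%) and 101 were lower (3.86%) with limma, against 6.74% and 5.81% of the named genes. For this count the unnamed rows were fitted and adjusted together with the named genes. The largest rise among the unnamed rows was 6.74 and the largest fall -5.39 on the log2 scale. What these rows measure was not tested.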

How the results depend on the processing

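No call of the plain fit changed direction in any of the 16 alternatives. All 199 named genes that were called kept their call with the replicate block, which changed no call other than those given beside the results and raised the counts to 2019 higher genes, and to 2153 higher and 1712 lower than later. With the array set as a block the counts were 2068 higher and 1763 lower than uninjured, and 2217 higher and 1758 lower than later. The methods' t-test called 1810 higher and 1710 lower genes with no adjustment, and after Benjamini-Hochberg 239 higher and 171 lower (211 and 142 at least 2-fold). In that last setting the group counts given as higher became 21 (cell cycle), 12 (replication), 7 (secretion), 6 (collagen processing), 9 (actin, contraction and adhesion), 3 (amino acid supply) and 0 (ribosome making and proteasome), and those given as lower became 6 (quiescent), 7 (detoxification), 1 (proteoglycans and basement membrane) and 0 (immediate early, interferon and complement). Without single arrays, the genes higher than at the later times numbered 900 to 1550 and the lower ones 648 to 1221, lowest without 3-day replicates 1 and 2. Of the 199 named genes called, 190 kept their call without any 1 array, and 71 kept it in every other alternative, all others losing it under the methods' t-test after Benjamini-Hochberg. Dcn, not called, passed the test with quantile normalization (-0.66) and under the methods' t-test with no adjustment. The direction turned only in uncalled genes, Il6 (-1.01 to 0.30 without single arrays, above 0 without uninjured replicate 2, at 0.10, or 3-day replicate 2) and Myh11 (-0.48 to 0.12, above 0 without 3-day replicate 3). With only the 150 bases before the start, the CHR shares were 25.8% (cell cycle) and 11.2% (all promoters), and the CCAAT shares 74.2% and 27.7%. The TGATGNAA shares were 17.9% (ATF4 targets and amino acid supply) and 2.54% (all). The CArG box lay in 1.04% of all promoters there. From 250 bases before to 50 after the start it lay in 8.7% of the actin, contraction and adhesion promoters and 1.81% of all. The number of arrays limits the precision, and signals near the background level limit the folds of genes such as Cdk1 and Cthrc1.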
